A study of Mus musculus with 18 samples.

Results

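A set of 10 genes of extracellular matrix breakdown and its control are described here in satellite cells of the mouse, which are the resident stem cells of muscle. They are the ADAMTS proteases Adamts1, Adamts4, Adamts5 and Adamts20, the matrix metalloproteinases Mmp2, Mmp3 and Mmp14, and the tissue inhibitors of metalloproteinases Timp1, Timp2 and Timp3. The members were picked by gene name with earlier results of the same libraries in view, so they were chosen by the values described here and their own changes are given with no test. All 10 hold values, among 10792 genes with values of 47729 listed.

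Matrix metalloproteinases are zinc enzymes that cut collagens, laminins and other matrix proteins, and most are made as inactive precursors. ADAMTS enzymes are secreted relatives that cut mainly proteoglycans such as versican and aggrecan. The TIMP proteins bind the active site of both families and block it, and TIMP-3 is the member of the family known for blocking ADAMTS4 and ADAMTS5. Satellite cells lie under the basement membrane of the muscle fibre, so the cells meet this matrix when they leave their niche after injury.

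Hind legs of C57BL/6 mice, 8.5 to 9 months old, gave the muscle, from which cells were sorted as VCAM1+, CD31-, CD45- and Sca1-. RNA sequencing covered 4 groups: non-activated cells of virgin mice (3 libraries), activated cells of virgin mice (6), non-activated cells of pregnant mice (3) and activated cells of pregnant mice (6). Activation was an injury made with repeated punctures of a 23-gauge needle. The labels give no genetic change, no time after injury and no stage of pregnancy, and they do not say whether each library is one mouse, so the spread between libraries may be partly technical.

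The library kit changed with activation. Non-activated cells went through a stranded total RNA kit with ribosomal RNA depletion and activated cells through a poly-A kit. Every activated against non-activated difference below is therefore also a difference between kits, and these cannot be told apart. Pregnant and virgin libraries of one cell state share a kit. A lower level in such bulk samples can mean fewer cells of a type or less RNA per cell, and these cannot be told apart either.

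Total counts ran from 17903943 to 24336842 in non-activated virgin libraries, from 15144397 to 20500462 in activated virgin, from 15066225 to 21626336 in non-activated pregnant and from 14043324 to 19904594 in activated pregnant libraries. The satellite cell label was checked on Pax7, which lay between 4555 and 20831 normalized counts in every library, while Itga7 and Cdh15 hold no value. Pax7 was 14481 to 20831 in non-activated virgin and 11241 to 11668 in non-activated pregnant libraries. It was lower in every activated library, at 4555 to 7991 in virgin and 5654 to 8159 in pregnant mice. Summed satellite cell markers, 10 of 12 with values, were 49627 to 60862 in non-activated virgin and 36380 to 53492 in activated virgin libraries. They were 51650 to 71080 in non-activated pregnant and 44278 to 57613 in activated pregnant libraries. Summed markers of fibro-adipogenic progenitors, the matrix-making cells of muscle, were 33467 to 39680 in non-activated virgin, 78504 to 101205 in activated virgin, 31595 to 63361 in non-activated pregnant and 115243 to 184854 in activated pregnant libraries, over 13 of 16 markers with values. Their defining marker Pdgfra was above 0 in every library. Summed tendon cell markers, all 6 with values, were 315 to 967, 30970 to 62797, 1123 to 2668 and 46403 to 122863 in the same order. The defining tendon marker Scx was above 0 in every library, at 59.0 to 106 in non-activated virgin and 12.2 to 33.5 in non-activated pregnant cells. In activated cells it was 238 to 482 in virgin and 211 to 420 in pregnant mice. Tnmd was at 0 in 2 of the 3 non-activated virgin and 1 of the 3 non-activated pregnant libraries and above 0 in every activated library. Mkx went the other way in virgin mice, at 148 to 226 in non-activated and 81.8 to 122 in activated cells. Leukocyte markers, 5 of 16 with values, summed to 163 to 284, 774 to 1158, 68 to 189 and 1571 to 7041. Their defining marker Ptprc holds no value, so these sums rest on Cd68, Lyz2, Cd14, Cd74 and H2-Ab1. In virgin mice Cd68 and H2-Ab1 overlapped between non-activated and activated libraries, whereas Lyz2, Cd14 and Cd74 did not. Progenitor, tendon and leukocyte sums were thus higher in every activated than in every non-activated library, with the highest single libraries in the activated pregnant group. Summed endothelial, smooth muscle and pericyte, and Schwann cell markers overlapped between activated and non-activated libraries. The part of all these cell types in the changes of the proteases was not tested.

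Promoter windows of 300 bases, from 250 before to 50 after the gene start, were taken from RefSeq (GRCm38.p6), which held 7 of the 10 genes. The RefSeq start of Adamts20 lies 61.1 kb inside the gene as deposited, so its window was not used. Windows of 3 genes are shown: those of the gene nearest to absent in non-activated cells (Mmp3), the inhibitor that differed most between activated and non-activated cells among the 3 (Timp1) and one that hardly differed with activation (Adamts1). Capitals mark the AP-1 letters TGANTCA and the TATA letters TATAAA on either strand.
Mmp3 (chr9:7445572-7445871, + strand): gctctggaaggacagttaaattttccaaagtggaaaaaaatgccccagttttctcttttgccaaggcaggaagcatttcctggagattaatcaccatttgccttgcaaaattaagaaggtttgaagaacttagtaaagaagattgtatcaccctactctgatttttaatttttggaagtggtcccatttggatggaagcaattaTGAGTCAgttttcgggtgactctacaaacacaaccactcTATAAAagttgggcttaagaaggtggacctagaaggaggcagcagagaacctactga
Timp1 (chrX:20869916-20870215, + strand): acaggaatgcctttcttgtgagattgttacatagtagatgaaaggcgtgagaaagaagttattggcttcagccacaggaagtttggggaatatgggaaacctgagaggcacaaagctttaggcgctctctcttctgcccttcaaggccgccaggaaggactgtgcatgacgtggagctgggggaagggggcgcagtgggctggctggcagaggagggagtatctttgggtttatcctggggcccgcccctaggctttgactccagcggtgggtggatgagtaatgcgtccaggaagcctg
Adamts1 (chr16:85803064-85803363, - strand): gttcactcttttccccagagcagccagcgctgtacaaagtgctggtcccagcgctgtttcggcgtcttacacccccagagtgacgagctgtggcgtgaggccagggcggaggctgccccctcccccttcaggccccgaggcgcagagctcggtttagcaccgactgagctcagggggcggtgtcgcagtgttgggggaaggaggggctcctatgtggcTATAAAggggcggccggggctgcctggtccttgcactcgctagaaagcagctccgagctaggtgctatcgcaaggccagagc
The Mmp3 window held the AP-1 letters as TGAGTCA starting at -46 from the gene start and TATAAA at -7. Of all 32851 windows in the table, 7.81% held the AP-1 letters and 13.6% the TATA letters. TATAAA also stood at -32 in the Adamts1 window. The Timp1 window held neither of these exact sets of letters, and variants that depart from them were not searched. GC content was 40.0% for Mmp3, 55.0% for Timp1 and 64.7% for Adamts1, against a median of 52.7% over all windows. The ETS letters AGGAAG, present in 35.4% of windows, occurred in the Mmp3, Mmp14, Timp1 and Timp3 windows and 3 times in that of Timp1, at -175, -99 and 41. The E-box letters CAGCTG, present in 16.3% of windows, occurred in the Timp2 window at -188. GC-box letters GGGCGG, present in 35.7%, occurred in the Adamts1, Mmp14, Timp1, Timp2 and Timp3 windows. These are matches of letters and do not show that a factor binds.

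**Figure D1:**
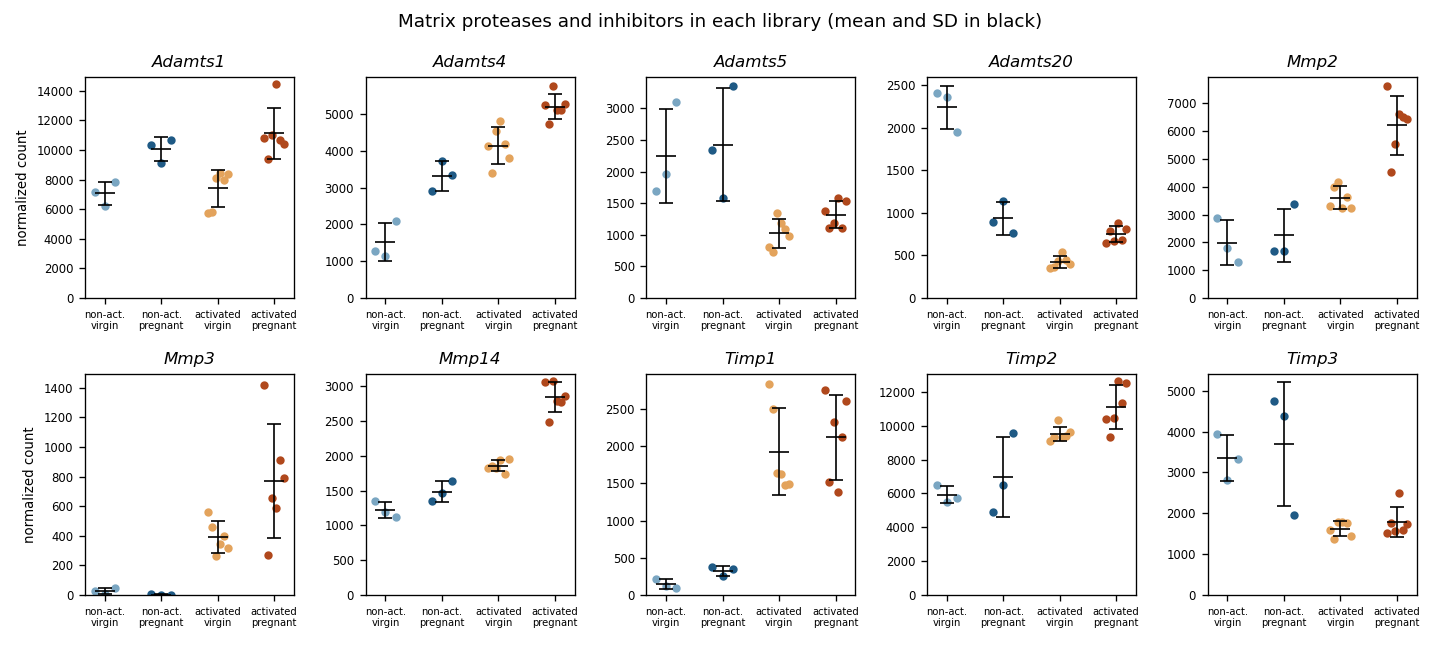
Normalized counts (y axis, linear, from 0) of the 10 genes in the 18 libraries, 1 point per library, with the mean and SD of each group in black. Mmp3 and Timp1 sit near the bottom of their axes in non-activated cells, and Adamts20 is highest in non-activated virgin cells, at 1952 to 2404.

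Adamts1 encodes a secreted protease that cuts versican and aggrecan. It lies on the minus strand of chromosome 16 (85793827 to 85803113, GRCm38). Its normalized counts, the counts divided by the authors' size factor of the library, were 7155, 6229 and 7814 in non-activated virgin cells and 10334, 9151 and 10674 in non-activated pregnant cells. In activated cells they ran from 5762 through a median of 8027 to 8425 in virgin mice and from 9423 through 10739 to 14484 in pregnant mice. All pregnant libraries were above all virgin libraries in both cell states. Activated and non-activated cells overlapped within each kind of mouse. The log2 change, pregnant minus virgin, was 0.51 (SE 0.15) without injury and 0.59 (SE 0.12) after it. On activation it was 0.05 (SE 0.15) in virgin and 0.14 (SE 0.15) in pregnant mice.

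Adamts5 is the neighbour of Adamts1, on the same strand at 85858170 to 85901125, with a gap of 55056 bases and 0 listed genes between them. It encodes a major aggrecan-cutting enzyme of cartilage. Normalized counts were 1687, 1961 and 3094 in non-activated virgin cells and 2334, 1584 and 3362 in non-activated pregnant cells. After injury they were 736 to 1343 (median 1036) in virgin mice and 1104 to 1587 (median 1281) in pregnant mice. In virgin mice the activated range lay wholly below the non-activated one, whereas in pregnant mice the highest activated library, at 1587, passed the lowest non-activated one, at 1584. The log2 change on activation was -1.11 (SE 0.23) in virgin and -0.83 (SE 0.23) in pregnant mice. With pregnancy it was 0.09 (SE 0.27) in non-activated and 0.37 (SE 0.14) in activated cells. The values of the neighbours thus differed with activation, although their deviations from the group means ran together over the 18 libraries (Pearson r = 0.687, a description with no test).

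Adamts4 encodes another enzyme that cuts aggrecan and versican. It lies on the plus strand of chromosome 1 (171250421 to 171260637). Normalized counts were 1290, 1155 and 2104 in non-activated virgin and 2895, 3720 and 3343 in non-activated pregnant cells, groups that did not overlap. Activated virgin cells had 3399 to 4815 (median 4151) and activated pregnant cells 4725 to 5760 (median 5172), ranges that overlapped at their edge. The log2 change on activation was 1.49 (SE 0.15) in virgin and 0.65 (SE 0.15) in pregnant mice. Pregnant exceeded virgin by 1.17 (SE 0.22) on the log2 scale without injury and by 0.33 (SE 0.08) after it. The counting of strands is not stated, so where a member overlaps another gene the reads of the overlap cannot be assigned to one of them.

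The ratio of Adamts4 to Adamts5 within a library, read only across groups since the genes differ in length, had a log2 mean of -0.57 (SD 0.19, n = 3) in non-activated virgin cells and 0.51 (SD 0.64, n = 3) in non-activated pregnant cells. It was 2.03 (SD 0.21, n = 6) in activated virgin and 1.99 (SD 0.24, n = 6) in activated pregnant cells. The activated groups of both kinds of mice covered much the same range, 1.75 to 2.34 and 1.68 to 2.28, above every non-activated library.

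Adamts20, which takes part in the migration of pigment cell precursors in the mouse embryo, behaved unlike the other ADAMTS members. It is the longest of the 10 genes, spanning 195 kb of chromosome 15 (94270163 to 94465418, minus strand). Normalized counts were 2404, 2358 and 1952 in non-activated virgin cells and 897, 1141 and 766 in non-activated pregnant cells. In activated cells they were 353 to 538 (median 418) in virgin and 645 to 880 (median 738) in pregnant mice. Pregnant libraries were all below virgin libraries without injury and all above them after injury. The log2 change, pregnant minus virgin, was -1.27 (SE 0.20) in non-activated and 0.83 (SE 0.11) in activated cells, a difference of 2.10 on the log2 scale. On activation the change was -2.41 (SE 0.15) in virgin mice and -0.31 (SE 0.15) in pregnant mice, where the ranges overlapped. The reversal was not particular to Adamts20: the related gene Adamts12, not a member, also had pregnant below virgin libraries only without injury. Adamts12 was then at 1745 to 2140 in pregnant and 2244 to 3183 in virgin mice. After injury it was 386 to 539 in pregnant and 185 to 385 in virgin mice.

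The activation values of Adamts20 depended on how genomic span was handled. When a smooth trend of expression on genomic span was taken out of each library, the log2 change on activation of Adamts20 became -0.40 in virgin and 1.52 in pregnant mice. Its pregnancy changes, within one kit, moved little, to -1.18 without injury and 0.74 after it. Among the short genes the same step moved Adamts1 to -0.78 and -0.51, Mmp14 to -0.20 and 0.32, and Adamts4 to 0.73 and 0.06, in virgin and pregnant mice. Timp1 kept 2.55 and 1.74, and Mmp3 kept 3.25 and 7.71.

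**Figure D2:**
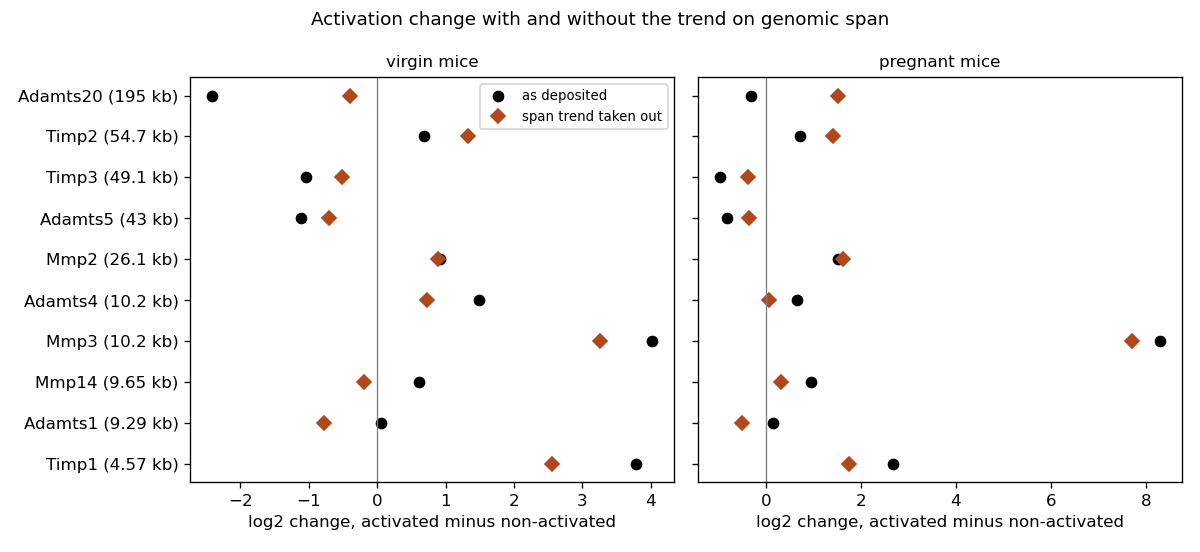
Log2 change, activated minus non-activated (x axis), for the 10 genes ordered by genomic span in kb (y axis), as deposited (black) and with the trend on span taken out (diamonds), in virgin and pregnant mice. The longest gene, Adamts20, moved from -2.41 to -0.40 in virgin mice, and Mmp14 moved from 0.61 to -0.20.

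Mmp3 encodes stromelysin-1, an enzyme that cuts many matrix proteins and activates other precursors. It lies on chromosome 9 (7445822 to 7455972, plus strand). Normalized counts were 26.5, 8.46 and 48.4 in non-activated virgin cells. In non-activated pregnant cells 1 library had 9.44, from 11 counts, and the other two were at 0. Activated virgin cells had 265 to 564 (median 371) and activated pregnant cells 270 to 1421 (median 721). Every activated library was above every non-activated one, whereas the activated virgin and pregnant ranges overlapped.

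On activation the fitted log2 change of Mmp3 was 4.02 (SE 0.65) in virgin mice. In pregnant mice it was 8.30 (SE 0.65), a value set by the constant of 1 added before taking logs, since 2 libraries were at 0: it became 8.99 with a constant of 0.5 and 6.61 with a constant of 5. The same holds for the difference of the pregnancy effect between cell states, 4.28, which became 2.84 with a constant of 5. Within activated cells, where counts were high, the log2 change with pregnancy was 0.86 (SE 0.31). Without injury Mmp3 was under the limit on low values and was not fitted. In activated pregnant cells the library with the lowest Mmp3, at 270, was library 2, which had the highest leukocyte sum, at 7041, and the lowest tendon sum, at 46403. Library 5, with the next lowest tendon sum, 61516, had Mmp3 at 910.

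Mmp14 encodes the membrane-bound MT1-MMP, which cuts collagen at the cell surface and activates the MMP2 precursor together with TIMP-2. It lies on chromosome 14 (54431612 to 54441265, plus strand). Normalized counts were 1346, 1189 and 1127 in non-activated virgin and 1344, 1462 and 1644 in non-activated pregnant cells, ranges that overlapped only between 1344 and 1346. Activated virgin cells had 1739 to 1948 (median 1840) and activated pregnant cells 2485 to 3073 (median 2822). These ranges were separate from each other and from the non-activated ones. The log2 change on activation was 0.61 (SE 0.09) in virgin mice, but -0.20 with the trend on span taken out, and 0.94 (SE 0.09) in pregnant mice. With pregnancy it was 0.28 (SE 0.19) in non-activated and 0.61 (SE 0.06) in activated cells.

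Mmp2 encodes gelatinase A, which cuts denatured collagen and basement membrane collagen. It lies on chromosome 8 (92827328 to 92853417, plus strand). Normalized counts were 2892, 1814 and 1287 in non-activated virgin and 1703, 1703 and 3368 in non-activated pregnant cells, which overlapped. After injury they were 3224 to 4189 (median 3483) in virgin and 4534 to 7624 (median 6475) in pregnant mice, with no overlap. The log2 change with pregnancy was 0.77 (SE 0.11) in activated cells and 0.18 (SE 0.29) in non-activated cells. On activation it was 0.92 (SE 0.23) in virgin and 1.52 (SE 0.23) in pregnant mice.

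The high non-activated pregnant value of Mmp2, 3368, came from library 3. That library also had the highest Timp2, the lowest Timp3 and the highest progenitor marker sum of its group, 63361 against 31595 and 35992. Without it the log2 change with pregnancy in non-activated cells was -0.15 for Mmp2, -0.07 for Timp2, 0.46 for Timp3 and -0.18 for Adamts5.

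Timp1 encodes a secreted inhibitor of most MMPs that is also known as a growth factor-like protein. It lies on chromosome X (20870166 to 20874735, plus strand) and overlaps Syn1, which holds no value. Normalized counts were 220, 119 and 92.5 in non-activated virgin and 377, 249 and 346 in non-activated pregnant cells. Activated virgin cells had 1474 to 2826 (median 1628) and activated pregnant cells 1377 to 2758 (median 2219). All activated libraries were above all non-activated ones, non-activated pregnant cells were above non-activated virgin cells, and the activated ranges overlapped.

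On activation the log2 change of Timp1 was 3.78 (SE 0.28) in virgin and 2.68 (SE 0.28) in pregnant mice. With pregnancy it was 1.24 (SE 0.44) in non-activated and 0.14 (SE 0.20) in activated cells. In activated virgin cells the highest Timp1 values, 2826 and 2495, were in libraries 1 and 2, which also had the highest tendon marker sums of that group, 62797 and 57668, and the highest Mmp3, 564 and 458. In activated pregnant cells libraries 1 and 6 were highest for Timp1, at 2758 and 2609, and for the tendon sum, at 113262 and 122863. The other libraries did not keep that order: library 4, lowest for Timp1 at 1377, had a tendon sum of 88358. Library 5, with Timp1 at 2116, had a tendon sum of 61516. The part of tendon-type cells in these values was not tested.

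Timp2, the inhibitor that bridges MT1-MMP and the MMP2 precursor, lies on chromosome 11 (118301069 to 118355740, minus strand). Normalized counts were 6503, 5520 and 5756 in non-activated virgin and 4895, 6474 and 9552 in non-activated pregnant cells. Activated virgin cells had 9073 to 10334 (median 9361) and activated pregnant cells 9320 to 12646 (median 10888). In virgin mice the activated range was wholly above the non-activated one, and in pregnant mice the ranges overlapped through non-activated library 3. The log2 change on activation was 0.68 (SE 0.15) in virgin and 0.72 (SE 0.15) in pregnant mice, and with pregnancy 0.18 (SE 0.21) and 0.22 (SE 0.08) in non-activated and activated cells.

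Timp3 encodes the inhibitor that stays bound to the matrix. It lies on chromosome 10 (86300372 to 86349506, plus strand) inside Syn3, a synapsin gene on the other strand. Normalized counts were 3940, 2810 and 3323 in non-activated virgin and 4738, 4392 and 1956 in non-activated pregnant cells. Activated virgin cells had 1362 to 1789 (median 1675) and activated pregnant cells 1528 to 2500 (median 1665). The ranges separated in virgin mice and overlapped in pregnant mice through non-activated library 3. On activation the log2 change was -1.04 (SE 0.22) in virgin and -0.97 (SE 0.22) in pregnant mice. With pregnancy it was 0.05 (SE 0.27) and 0.12 (SE 0.12) in non-activated and activated cells. Syn3 changed on activation by a log2 of -4.95 (SE 0.50) in virgin and -5.27 (SE 0.50) in pregnant mice, and its part in the Timp3 counts was not tested.

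**Figure D3:**
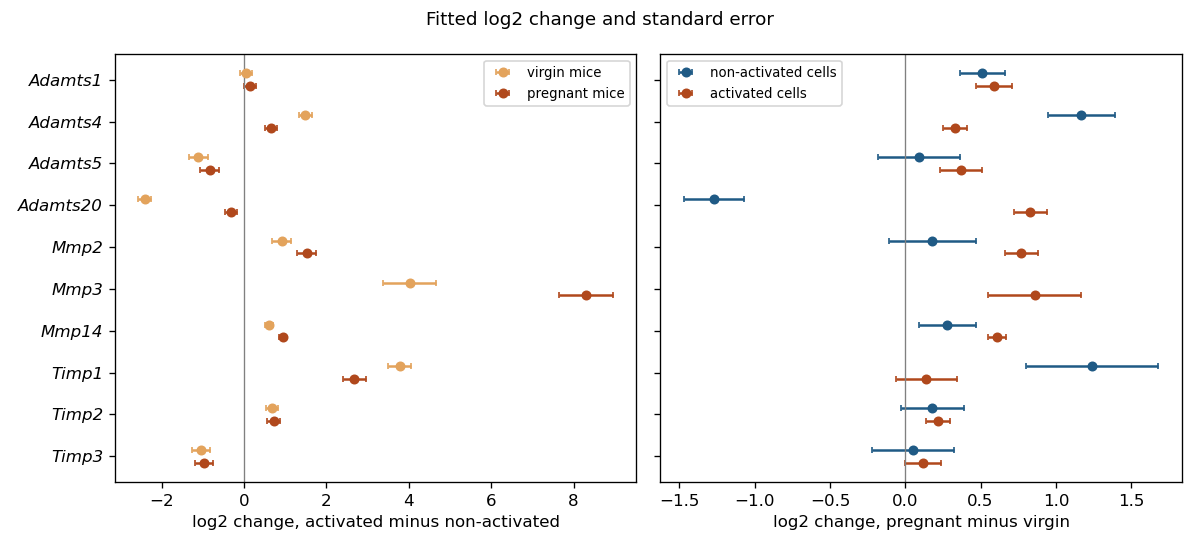
Log2 change with its standard error (x axis) for each gene (y axis), activated minus non-activated (left) and pregnant minus virgin (right); Mmp3 has no value without injury. Mmp3 and Timp1 lie farthest to the right on activation, and Adamts20 lies on opposite sides of 0 with pregnancy in the 2 cell states.

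The balance of inhibitors and of enzymes within a library differed between groups. The log2 ratio of Timp1 to Timp3 averaged -4.62 (SD 0.50, n = 3) in non-activated virgin and -3.43 (SD 0.84, n = 3) in non-activated pregnant cells. It averaged 0.20 (SD 0.51, n = 6) and 0.22 (SD 0.64, n = 6) in activated cells of virgin and pregnant mice. Mmp2 to Timp2 averaged -1.64 (SD 0.50) and -1.65 (SD 0.24) in non-activated cells, -1.41 (SD 0.14) in activated virgin and -0.85 (SD 0.21) in activated pregnant cells. The lowest activated pregnant library, at -1.04, was above the highest activated virgin library, at -1.22. Mmp14 to Timp2 ran from -2.50 to -2.27 in activated virgin and from -2.18 to -1.77 in activated pregnant cells, again with no overlap. Mmp3 to Timp1 averaged -2.29 (SD 0.24) and -1.57 (SD 0.56) in the same groups, with overlap. Since the ratios are built from the members' values, they carry no test.

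**Figure D4:**
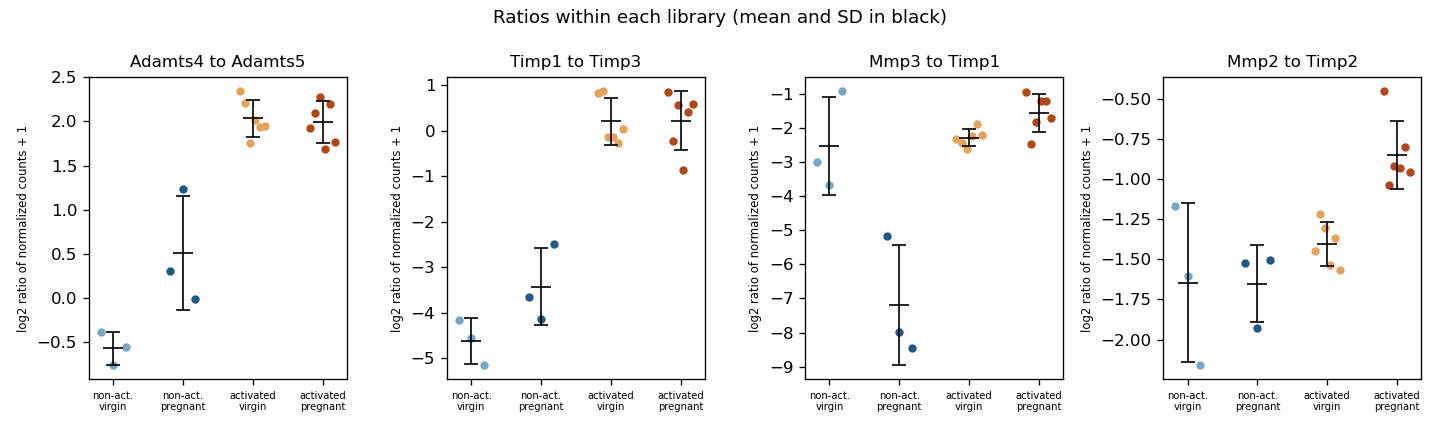
Log2 ratio of the normalized counts plus 1 of 2 genes within each library (y axis), 1 point per library, with the mean and SD in black. The ratio of Timp1 to Timp3 was -5.15 to -2.49 in non-activated and -0.86 to 0.87 in activated libraries.

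Over all 10 genes, called means an adjusted p under 0.05 in limma across all genes tested. On activation 6 members were called higher and 3 lower in virgin mice, where 39.0% of 10751 genes were higher and 33.6% lower. In pregnant mice 6 were called higher and 2 lower, against 40.3% and 32.6% of genes. With pregnancy, 1 of 9 tested was called higher and 1 lower without injury, against 2.88% and 1.74% of 10447 genes. After injury 5 were called higher and 0 lower, against 14.0% and 13.4% of 10499 genes. For the difference of the pregnancy effect between cell states, 2 were called higher and 1 lower, against 7.83% and 7.24% of genes. The members were chosen on these comparisons, and nothing is read from the counts. Their median log2 change was 0.65 and 0.68 on activation in virgin and pregnant mice, beside 0.17 and 0.21 over all genes, and 0.18 and 0.48 with pregnancy in non-activated and activated cells, beside -0.02 and -0.01. The comparisons share groups and are not independent of each other.

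Deviations from the group means over the 18 libraries showed which genes ran together with a member; these are descriptions that share libraries and depth. For Adamts1 the highest were Reck (r = 0.919), which encodes a membrane-anchored inhibitor of MMPs, Ptprg (r = 0.919) and Fry (r = 0.882). For Mmp14 they were P4hb (r = 0.805), a collagen prolyl hydroxylase subunit and protein disulfide isomerase, H2afj (r = 0.785) and Degs1 (r = 0.785). For Timp2 they were Kdelr1 (r = 0.908), a receptor that returns proteins to the endoplasmic reticulum, Ggh (r = 0.899) and Crip2 (r = 0.889). For Timp1 they were Wdr82 (r = 0.919), Ssr1 (r = 0.890), part of the translocon of secreted proteins, and Gcsh (r = 0.887). For Mmp3 they were Fam167a (r = 0.922), Aig1 (r = 0.915) and Mrps18b (r = 0.862). The Mmp3 correlations include non-activated libraries near the floor, at 8.46 to 48.4 normalized counts in virgin and 0 to 9.44 in pregnant mice. Deviations there depend on counting noise and on the added constant, so nothing is read from these 3 names. Among the members themselves the closest pairs were Mmp2 with Timp2 (r = 0.705) and Mmp2 with Mmp14 (r = 0.697). Both values include non-activated pregnant library 3, the highest of its group for Mmp2 (3368), Timp2 (9552) and Mmp14 (1644).

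Related genes that are not members were tested in the same fits. Their counts on activation stand beside 39.0% of all genes higher and 33.6% lower in virgin mice and 40.3% and 32.6% in pregnant mice, with medians of 0.17 and 0.21 over all genes. Of the other ADAMTS and ADAMTS-like genes, 17 of 21 hold values. On activation in virgin mice 4 rose and 9 fell, with a list median log2 change of -0.49 beside 0.17 over all genes. The falls of largest size, with no trend on span taken out, were those of Adamts17 (log2 change -3.78, limma adjusted p = 5.52e-07), Adamts12 (-3.20, 2.34e-11), Adamts9 (-2.38, 4.98e-10) and Adamts3 (-2.29, 1.23e-07). Adamts12 had 2744 ± 472 normalized counts (SD, n = 3) in non-activated and 302 ± 71.8 (SD, n = 6) in activated virgin cells. In pregnant mice 5 rose and 6 fell (list median 0.02), with Adamts17 at -3.14, Adamts3 and Adamtsl1 each at -2.70, and Adamtsl5 at 4.89, where non-activated libraries reached down to 0. With pregnancy in activated cells, where 14.0% of all genes were higher and 13.4% lower, 8 rose and 0 fell, among them Adamts3 (log2 change 1.22, limma adjusted p = 0.000554), while in non-activated cells 2 rose, Adamts3 (1.63, 0.00598) and Adamtsl1 (0.80, 0.0174).

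Of the other MMPs, 4 of 20 hold values. Mmp15 and Mmp17, which encode membrane-type enzymes, rose on activation in virgin mice, by a log2 of 4.00 (limma adjusted p = 9.94e-08) and 1.42 (0.00177). In pregnant mice all 4 rose: Mmp15 by 3.51, Mmp11 by 1.83, Mmp16 by 1.77 and Mmp17 by 1.50. The limma adjusted p of Mmp16 was 0.0304, and its call rested on 1 library: without non-activated pregnant library 3 the change was 0.62 (0.35). Without activated pregnant library 3 its adjusted p in limma was 0.0587, and with a separate spread for each group 0.132. With pregnancy Mmp16 rose in activated cells, by 1.24 (limma adjusted p = 0.00893) and in non-activated cells the median change of the 4 was 0.07.

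Of the other inhibitors, 11 of 17 hold values, and Timp4 is not among them. In virgin mice 7 rose and 2 fell on activation (list median 0.89). Serpina3n, a serine protease inhibitor, rose by a log2 of 4.45 (limma adjusted p = 3.77e-12). The cathepsin inhibitors Cstb and Cst3 rose by 3.93 (6.06e-14) and 2.62 (7.37e-10), and Serpine2, which blocks plasminogen activators and thrombin, by 2.60 (6.14e-06). In pregnant mice 7 rose and 2 fell as well (list median 1.08), with Serpina3n at 4.08, Serpinf1 at 2.62, Cstb at 2.48 and Spock3 at -2.56, the last becoming 0.17 with the trend on span taken out. Reck, the gene nearest to Adamts1 in deviations, fell by 0.46 in virgin mice (limma adjusted p = 0.0281), had a log2 change of 0.00 on activation in pregnant mice and rose by 0.47 with pregnancy in activated cells (0.022).

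Among genes of the ADAM family, of which only some encode membrane proteases that cut surface proteins, 11 of 13 hold values. In virgin mice 5 rose and 2 fell (list median 0.38), with Adam8 at 3.13, Adam11 at 2.40, Adam19 at 2.35 and Adam22 at -2.10, which became 0.48 with the trend on span taken out. In pregnant mice 8 rose and 2 fell (list median 0.73), with Adam8 at 4.69 and Adam23 at 3.79. Non-activated pregnant libraries had 0 to 90.1 normalized counts of Adam8 and 0.858 to 31.1 of Adam23, so these 2 values depend on the added constant. The call of Adam11 was lost without non-activated virgin library 1, where its change was 1.43 (limma adjusted p = 0.0949). Of the plasmin system and other matrix-processing proteases, 16 of 20 hold values. In virgin mice 7 of these rose and 4 fell (list median 0.54), led by the cathepsins Ctss at 4.74 (limma adjusted p = 7.13e-05), Ctsd at 2.24 and Ctsl at 1.95 and by the hyaluronidase Hyal2 at 2.22. In pregnant mice 7 rose and 3 fell (list median 0.28), with Ctss at 6.17, Hyal2 at 3.61, Ctsd at 2.74 and the heparanase gene Hpse at 2.44. Without non-activated pregnant library 2 the change of Hpse was 0.61 (limma adjusted p = 0.143). Ctss, a protease typical of antigen-presenting cells, was 7.70 ± 7.05 normalized counts (SD, n = 3) in non-activated virgin, 144 ± 28.8 (n = 6) in activated virgin and 619 ± 360 (n = 6) in activated pregnant cells. In non-activated pregnant cells it was 14.3 ± 15.0 (n = 3). Leukocyte marker sums were also highest in activated pregnant cells. Among non-activated cells they overlapped, at 163 to 284 in virgin and 68 to 189 in pregnant mice. The part of leukocytes in the Ctss values was not tested.

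Genes of substrates and partners were tested as well. Of the proteoglycans cut by ADAMTS proteases, 3 of 6 hold values. In virgin mice all 3 rose on activation: decorin (Dcn) by a log2 of 3.45, biglycan (Bgn) by 2.28 and versican (Vcan) by 1.61, and in pregnant mice Dcn rose by 4.00 and Bgn by 2.48. Dcn is also one of the progenitor markers. Of 12 activators and partners with values, 7 rose and 3 fell in both kinds of mice, with list medians of 0.66 in virgin and 0.80 in pregnant mice. In virgin mice the procollagen C-proteinase enhancer Pcolce was at 3.51, Cldn1 at 3.45, fibulin-1 (Fbln1) at 3.19 and the proprotein convertase Pcsk5 at -3.30. In pregnant mice Pcolce was at 4.16, Fbln1 at 3.75, Pcsk5 at -3.44 and Cldn1 at 3.16. The call of Cldn1 was lost without non-activated library 1 in virgin mice (2.03, limma adjusted p = 0.0523) and without library 2 in pregnant mice (1.60, 0.0976). Of the 11 basement membrane genes with values, 6 rose and 3 fell in both, with list medians of 0.59 and 0.65. In virgin mice Lamb1 was at 2.27, Lama5 at 2.19, Lama2, the chain of mature muscle laminin, at -2.43 and Col15a1 at -1.88. In pregnant mice Lamb1 was at 2.54, Lama5 at 2.53, Lama4 at 1.82 and Lama2 at -1.90. The fall of Lama2 turned into a rise of 1.31 and 1.43 when the trend on span was taken out. With pregnancy in activated cells 8 of the 11 basement membrane genes rose and 0 fell, beside 14.0% and 13.4% of all genes, among them Lama4 (log2 change 0.85, limma adjusted p = 0.000554) and Nid1 (0.83, 0.000535), named after their values were seen. In the same comparison 8 of 13 progenitor markers rose and 1 fell (list median 0.71). Rises numbered 5 of 6 among tendon markers (0.90) and 5 of 5 among leukocyte markers (1.80), with 0 falls in both. Of the endothelial markers 0 of 7 rose (-0.18), and of the Schwann cell markers 0 of 6 (0.13). Of the smooth muscle and pericyte markers 2 of 9 rose (0.33), and of the satellite cell markers 1 of 10 rose and 1 fell (0.07). The part of these cell types in the rises of the other lists was not tested.

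Without injury, 3 of the 16 genes of the plasmin and protease list rose with pregnancy and 0 fell, as did 2 of 12 activators and partners, 1 of 11 inhibitors and 1 of 3 proteoglycans, beside 2.88% of all genes called higher. Plau, the urokinase gene, rose from 3013 ± 436 to 8333 ± 1173 normalized counts (SD, n = 3 each), a log2 change of 1.47 (limma adjusted p = 0.000217). Its receptor gene Plaur rose from 1099 ± 321 to 3537 ± 711, by 1.70 (0.000513). Tfpi2, an inhibitor of plasmin and related proteases, rose by 1.69 (limma adjusted p = 0.00233). The versican gene Vcan rose by 2.29 (0.000188), from 396 ± 109 to 1937 ± 494, and Cd44, a hyaluronan receptor that anchors MMPs at the cell surface, by 1.36 (0.00443).

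Of the 9 AP-1 factors, all with values, Fosl1 rose by 1.88 (limma adjusted p = 1.94e-05) and Fos fell by 1.24 (0.00187) with pregnancy in non-activated cells. Fosl1 had 2223 ± 164 normalized counts in non-activated virgin and 8197 ± 634 in non-activated pregnant cells (SD, n = 3 each), beside 2747 ± 312 and 2680 ± 513 in activated cells (SD, n = 6 each). Batf fell on activation, by 3.11 in virgin and 2.02 in pregnant mice, and Fosl1 fell by 1.63 in pregnant mice. The myoblast factor Myod1, among the satellite cell markers, was 1295 to 1403 in non-activated virgin and 4518 to 5413 in non-activated pregnant cells, and its part in these differences was not tested.

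With pregnancy after injury, in activated cells, Ctss rose by 1.93 (limma adjusted p = 0.000959), the collagen-cutting cathepsin gene Ctsk by 1.06 (0.000761), Adam23 by 1.30 (0.000158), the proteoglycan gene Spock2 by 1.26 (0.00289) and Batf by 1.21 (0.0115). Plau and Plaur rose by 0.26 (0.0465) and 0.33 (0.028). The median log2 change was 0.39 for the other ADAMTS genes, 0.48 for the basement membrane list and 0.22 for the plasmin and protease list, beside -0.01 over all genes.

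The difference of the pregnancy effect between cell states was tested directly. It was below 0 for Fosl1 (-1.93, limma adjusted p = 9.12e-06), Plau (-1.21, 0.000552), Plaur (-1.38, 0.00135), Vcan (-1.72, 0.00214), Tfpi2 (-1.33, 0.0089) and Cd44 (-1.16, 0.0198). It was above 0 for Adamts12 (1.04, 0.0159) and Fap (1.36, 0.0135), the gene of fibroblast activation protein. With a separate spread for each group all of these lost their calls: the limma adjusted p became 0.056 for Fosl1, 0.113 for Plau, 0.110 for Plaur and 0.186 for Vcan. The call of Cd44 was also lost without non-activated virgin library 2, where the difference was -0.88 (limma adjusted p = 0.062).

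**Figure D5:**
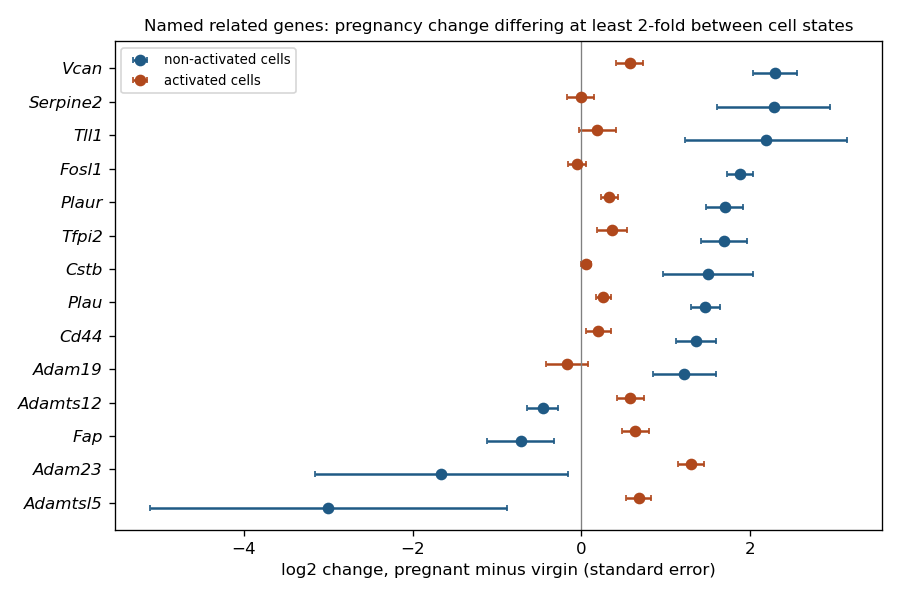
Log2 change with its standard error, pregnant minus virgin (x axis), in non-activated and activated cells for the 14 named genes (y axis) of the 20 related genes called for the difference between cell states, those with a difference of at least 2-fold, up to 4 a list. Fosl1, Plau, Plaur, Vcan and Cd44 lie at 1.36 to 2.29 without injury and at -0.05 to 0.57 after it.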

How the data were processed

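The tools named in the submitters' processing notes are DESeq2 1.22.1, HTSeq 0.6.0, TopHat2 2.0.14 and cutadapt 1.12, and the build is GRCm38; whether strand was used in counting is not given in the sources used here. Raw and normalized counts were deposited for each gene, per the file headers, the normalized value being the count over a size factor of the library, and question marks for 36937 genes without values. Because of those marks the columns were not handled as plain counts, and no count model was run. The table's 6 columns from another project were not used.

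The members and all lists of related genes were chosen with earlier results of these data known. Log2(normalized count + 1) was fitted with limma-trend (limma 3.58.1, R 4.3.3) over genes with at least 10 normalized counts in at least the number of libraries held by the fit's smallest group. All 4 groups entered the activation fits and the test of the difference, and the 2 groups compared entered each pregnancy fit. P-values were adjusted by Benjamini-Hochberg over all genes tested, with 0.05 as the threshold. Replicate libraries were not said to be separate animals. The procedure was tested on simulated data. All 10 members were named, and, of each list of related genes, called genes changed at least 2-fold, up to 4 a comparison. Alternatives were other added constants, low-value limits, scalings, weights, sample choices, a replicate block, a trend on genomic span, and each library left out. Promoter letters were searched on both strands. Figures were drawn with matplotlib 3.10.9. A result on 1 further gene is not reported here.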

Additional observations from a re-analysis of the deposited data

Results flagged for a closer look

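Library 4 of the activated pregnant group stood apart for 2 members, with 14484 normalized counts of Adamts1 and 2500 of Timp3, each far above the other 5 libraries. Chance gives such a value in about 1 in 20 groups. That library also had the highest sums of all for progenitor markers, 184854, and for smooth muscle and pericyte markers, 43515. Library 6 of the same group had a progenitor sum near it, 176112, but Adamts1 at 10384 and Timp3 at 1734. The part of these cell types in the 2 values was not tested. Without library 4 the log2 change with pregnancy in activated cells was 0.52 for Adamts1 and 0.02 for Timp3.

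Adamts20 was lower in every non-activated pregnant library than in the virgin ones and higher in every activated one; the difference of 2.10 on the log2 scale was not tested, since the gene was chosen for it.

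The pregnancy effect differed between cell states for 20 related genes in limma over all genes, of which the 14 with a difference of at least 2-fold, up to 4 a list, are given. The difference was positive for Adamtsl5 (3.68), Adam23 (2.96), Fap (1.36) and Adamts12 (1.04). It was negative for Serpine2 (-2.29), Tll1 (-2.01), Fosl1 (-1.93), Vcan (-1.72), Cstb (-1.45), Adam19 (-1.39), Plaur (-1.38), Tfpi2 (-1.33), Plau (-1.21) and Cd44 (-1.16). Adamtsl5 reached 0 in non-activated pregnant libraries, and Adam23 averaged 15.7 normalized counts there, so their values depend on the added constant. With a separate spread for each group none of the 14 passed, the adjusted p from limma running from 0.0506 for Cstb to 0.508 for Adam19. Without non-activated virgin library 2 the adjusted p in limma was 0.0693 for Adam23 (2.54), 0.0552 for Tll1 (-1.89), 0.062 for Cd44 (-0.88) and 0.0603 for Adam19 (-1.50), and without non-activated pregnant library 2 it was 0.0548 for Adamtsl5 (2.89) and 0.112 for Adam19 (-1.19). Leaving out any of several other libraries also ended the call of Adam19.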

How the results depend on the processing

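With the trend on genomic span taken out, the activation change turned sign for Mmp14 in virgin mice (-0.20), for 2 members not called on activation there, Adamts1 (-0.78 in virgin and -0.51 in pregnant mice) and Adamts20 in pregnant mice (1.52), for Adam22 (0.48 in virgin and 0.26 in pregnant mice), for Lama2 (1.31 and 1.43) and for Spock3 in pregnant mice (0.17). Of the 91 changes of named related genes over all comparisons, 5 turned sign with that trend out and 9 others were no longer called. Members called lower on activation in pregnant mice numbered 1 with that trend out, with quantile normalization and with a spread for each group. For pregnancy without injury, taking the trend out left 121 genes, and 0 members higher and 0 lower; fitting all 4 groups together called 2485 genes, 4 members higher and 2 lower, and leaving out single libraries gave 237 to 441 genes, with 237 without virgin library 2 and 247 without pregnant library 2. For pregnancy after injury, fitting all 4 groups together called 578 genes. For the difference between cell states, a spread for each group left 12 genes, against 1620 with a shared one, with 1 member higher and 0 lower; voom weights gave 1 higher, and the trend taken out 0 lower. Leaving out single libraries gave 2 to 4 members higher, with 4 without pregnant non-activated library 3, and 1 to 2 lower, with 2 without virgin non-activated library 1. The causes were not tested.

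Replicate numbers did not pair the libraries, since same-numbered deviations correlated from -0.175 to 0.141. With the replicate block, the difference between cell states had 2 members lower and 1204 genes called, and pregnancy without injury 568 genes.

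Another scaling moved the median log2 change of all genes on activation from 0.17 to 0.36 (total count) or 0.01 (quantile) in virgin mice and from 0.21 to 0.50 or 0.01 in pregnant mice. The share of higher genes among those called went from 62.3% to 46.1% (total count), 51.5% (quantile) or 78.5% (span trend) for pregnancy without injury. It went from 52.0% to 67.2% (total count) or 63.1% (span trend) for the difference between cell states, from 55.3% to 68.3% (span trend) on activation in pregnant mice and from 51.1% to 65.6% (span trend) for pregnancy after injury, where fitting all 4 groups together called 83.2% of its genes higher. With 3 libraries in each non-activated group and Mmp3 at 0 to 68 counts there, its change on activation has no firm size.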
